A study of Mus musculus with 8 samples.

Results

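The genes described here are 46 transcription factors listed for their part in forming tissues other than the nervous system. Some also act in the nervous system, such as Pax3 in the dorsal neural tube and Gata3 in sympathetic neurons. They were measured in mouse neurospheres with and without the chromatin protein HP1gamma, the product of Cbx3. The members were listed by name, and their probes were found through the RefSeq accession that the array files give for each probe. No filter on a measured value was used to list them, but earlier results of these data were known when they were chosen. All 46 had at least 1 probe, among 20660 genes with a symbol on the array. They fall into GATA, forkhead and other blood and endoderm factors (9 genes), T-box factors (8), heart factors (3), mesenchyme, limb and skull factors (10), paired box factors (6), posterior body factors (4), skeletal muscle factors (2) and factors of kidney, gonad and sensory organs (4).

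Neurospheres are free-floating clusters that grow from neural stem cells in medium with EGF and bFGF. The cells were taken from the ganglionic eminence, a ventral region of the telencephalon, at E14.5, and RNA came from spheres after repeated passage. The labels give 3 groups, which are wild-type floating (WT floating, 3 arrays), Cbx3-/- floating (KO floating, 3 arrays) and Cbx3-/- adherent (KO adherent, 2 arrays). Each array stands for the culture of 1 embryonic brain, so the p-values measure the spread between such cultures. All groups shared the same medium and array type, and each RNA was labelled with Cy3. Both KO adherent arrays lay in row 2 of the slide. Each floating group had its arrays 1 and 2 in row 1 and its array 3 in row 2, so culture and slide row partly coincide. The labels do not say how cells were made adherent, since the protocol has ultra-low attachment plates for every sample. The sex and strain of the embryos and the deleted part of Cbx3 are likewise not given there. No wild-type adherent culture is among the samples, so culture can be compared within the mutant only.

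Lineage factors of this kind are master regulators, and each one can push a cell toward the tissue it belongs to. In cells of another lineage their promoters, which are often rich in CG dinucleotides, are typically kept silent by Polycomb group proteins, which place methyl groups on lysine 27 of histone H3. HP1gamma binds methylated lysine 9 of histone H3 at silent chromatin and is also found on transcribed genes. The study's title concerns less H3K27 methylation of neuronal genes when Cbx3 is missing. The arrays measured RNA only, and the histone mark was not analysed here.

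Signals are log2 values of the processed Cy3 signal minus the log2 of that array's 75th percentile, so that 0 is the 75th percentile and each unit is a 2-fold step. They can be compared for 1 probe across arrays, but not between genes. The 75th percentile lay between 616 and 865 signal units, and 44.5% (WT floating 3) to 55.4% (WT floating 2) of spots were well above background by the scanner's own flag. Cbx3 was read at 5.83 and 5.95 on WT floating 1 and 3, and -1.86, -2.76, -1.75 and -2.03 on KO floating 1, 2 and 3 and KO adherent 1. It was -2.17 on the array labelled WT floating 2 and 5.91 on the array labelled KO adherent 2, which goes against both labels. Every array keeps its label here, the labelled comparisons were made with all 8 arrays, and each was repeated without these 2. A further fit set the other 4 KO arrays (KO floating 1, 2 and 3 and KO adherent 1) against WT floating 1 and 3. All 8 genes of a neural stem cell list that were on the array, Nes, Sox2 and Fabp7 among them, were well above background on all 8 arrays.

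By the scanner's flag for a signal well above background, 24 of the 46 factors were below it on every array, 6 were above it on all 8, and 16 on some. By its looser flag, a signal significantly above background, 7 were on no array, 39 on at least 1 and 11 on all 8. The stricter flag is used from here on, and by it the shares on no array, all 8 and some were 52.2%, 13.0% and 34.8%, beside 24.6%, 57.4% and 18.0% for all genes with a symbol. In a list of 26 neural transcription factors, 19 (73.1%) were above background on all 8 arrays and 3 (11.5%) on none. The 6 members seen on all arrays were Eya1, Gata5, Msx1, Msx2, Prrx1 and Tbx2. Gata3 was seen on 7 arrays, Alx4, Pax9, Six2 and Tbx15 on 6, and T, Tal1 and Tbx1 on 5. Barx1 was seen on 4 arrays, Foxa1 on 3, and Foxa2, Pax3 and Tbx3 on 2. Pax2 was above background on KO adherent 1 only, Twist1 on WT floating 2 only and Wt1 on KO floating 3 only.

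The 24 factors never well above background included every member of 3 of the groups named above. These were the 3 genes grouped as heart factors (Nkx2-5, Hand1 and Hand2), the 4 posterior body factors (Cdx1, Cdx2, Evx1 and Evx2) and both skeletal muscle factors (Myod1 and Myf5), although Gata5 and Tbx2, which also act in the heart, were seen on all 8 arrays. The others were Gata2, Gata4, Gata6 and Sox17 of blood and endoderm, the T-box genes Tbx4, Tbx5 and Tbx20, Twist2, Alx1, Pitx1 and Shox2 of mesenchyme, limb and skull, Pax1, Pax7 and Pax8, and Lhx9 of the gonad and limb. The median signal of their 29 probes was between -6.91 (WT floating 2) and -5.56 (WT floating 3), and the floor of detection moved with the array. A transcript below that floor was not detectable here, which does not show that it was absent.

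The number of members above background differed from array to array. It was 12, 17 and 6 on WT floating 1, 2 and 3, 19, 12 and 16 on KO floating 1, 2 and 3, and 17 and 11 on KO adherent 1 and 2. The lowest count was on WT floating 3, which also had the fewest genes above background of any array (60.7% of all genes with a symbol, against 62.5% to 68.4% on the others) and the highest floor, with its dimmest detected probe at -3.47. WT floating 1 and KO floating 2 had the same number, so counts per array overlapped between the genotypes as labelled.

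**Figure D1:**
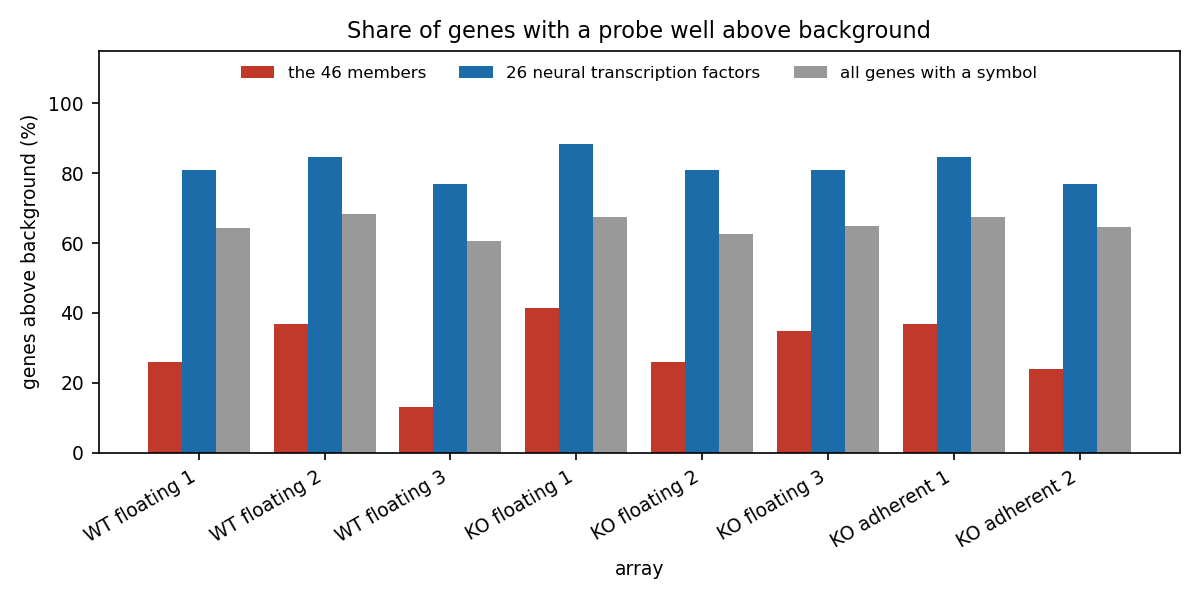
The percentage of genes with at least 1 probe well above background is plotted for each array, for the 46 members (red), 26 neural transcription factors (blue) and all genes with a symbol (grey). The members range from 13.0% on WT floating 3 to 41.3% on KO floating 1, below the grey bar (60.7% to 68.4%) on every array.

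The promoters of these genes show the sequence composition for which such loci are known. RefSeq promoter windows of the GRCm38.p6 build were at hand for 30 of the 46 members, in 37 windows. Over the 250 bases before each annotated start, the motif CG, which reads the same on both strands, occurred a median of 14 times in the members and 6 times in all 32851 windows, 92.1% of which held at least 1. The ratio of observed CG to that expected from the C and G content was over 0.6 in 67.6% of the members' windows and in 34.0% of all windows. The median was 17 CG in the 21 windows of members seen on at least 1 array and 12 in the 16 windows of members never seen. The windows below belong to Tal1, Pax9, T and Gata3, which with Tbx15 had the widest range of signal across arrays, and to Gata5, which was above background on every array. They are written 5′ to 3′ on the strand of the gene with each CG in capitals.
Tal1, chr4:115056176-115056425, plus strand, 6 CG: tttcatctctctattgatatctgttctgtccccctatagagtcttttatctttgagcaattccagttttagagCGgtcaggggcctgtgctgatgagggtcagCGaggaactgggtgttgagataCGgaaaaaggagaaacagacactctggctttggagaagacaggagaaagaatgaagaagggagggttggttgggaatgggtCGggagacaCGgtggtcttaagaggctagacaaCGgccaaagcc
Tal1 (second start), chr4:115057561-115057810, plus strand, 16 CG: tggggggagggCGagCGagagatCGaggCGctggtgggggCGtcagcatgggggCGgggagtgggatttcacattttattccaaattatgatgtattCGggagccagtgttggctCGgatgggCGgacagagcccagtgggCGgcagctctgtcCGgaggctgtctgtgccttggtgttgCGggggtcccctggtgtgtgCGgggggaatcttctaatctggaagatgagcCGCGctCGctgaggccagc
Pax9, chr12:56695221-56695470, plus strand, 7 CG: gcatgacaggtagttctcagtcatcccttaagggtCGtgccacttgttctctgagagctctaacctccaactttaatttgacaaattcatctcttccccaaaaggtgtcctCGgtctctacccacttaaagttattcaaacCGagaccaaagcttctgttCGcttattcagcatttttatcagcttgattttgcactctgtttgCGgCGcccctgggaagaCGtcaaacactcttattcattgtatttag
T, chr17:8434173-8434422, plus strand, 14 CG: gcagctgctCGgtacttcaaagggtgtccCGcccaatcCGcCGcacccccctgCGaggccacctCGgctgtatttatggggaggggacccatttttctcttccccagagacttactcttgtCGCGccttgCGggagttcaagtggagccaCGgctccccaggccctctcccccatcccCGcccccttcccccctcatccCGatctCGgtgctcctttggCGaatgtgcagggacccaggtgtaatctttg
Gata3, chr2:9878601-9878850, minus strand, 19 CG: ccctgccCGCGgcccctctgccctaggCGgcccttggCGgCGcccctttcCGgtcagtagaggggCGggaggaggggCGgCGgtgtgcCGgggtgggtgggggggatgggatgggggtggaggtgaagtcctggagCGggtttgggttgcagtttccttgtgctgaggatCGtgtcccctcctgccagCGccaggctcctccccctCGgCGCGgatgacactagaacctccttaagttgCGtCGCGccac
Gata5, chr2:180334680-180334929, minus strand, 22 CG: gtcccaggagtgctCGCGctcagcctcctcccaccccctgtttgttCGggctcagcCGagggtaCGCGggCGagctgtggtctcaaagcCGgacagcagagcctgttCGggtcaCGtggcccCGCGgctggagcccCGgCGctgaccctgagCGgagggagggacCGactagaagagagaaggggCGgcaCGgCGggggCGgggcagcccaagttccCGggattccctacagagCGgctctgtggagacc

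These windows were not alike. The first Tal1 window and the Pax9 window held few CG, with 49.6% and 53.7% of all windows holding fewer. The second Tal1 window, T, Gata3 and Gata5 ranked higher, with 74.6%, 70.6%, 80.3% and 85.2% of windows holding fewer. The windows of Gata3 and Gata5, the former seen on 7 arrays at widely different signals and the latter steady on all 8, were both 70.0% G and C.

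Among the blood and endoderm factors, Tal1 split the arrays the way Cbx3 did. Tal1 encodes a basic helix-loop-helix protein required for the formation of blood cells. Its signal was -6.27, -1.35 and -5.56 on WT floating 1, 2 and 3, -1.97, -0.12 and -1.65 on KO floating 1, 2 and 3, and -0.86 and -4.34 on KO adherent 1 and 2. The 5 arrays from -1.97 upward were above background and were those with low Cbx3, while the other 3 were at background. Gata3, a zinc finger factor of T cells, the inner ear and sympathetic neurons, was at -3.16, -1.39 and -5.14 on WT floating, -0.26, -2.11 and -1.13 on KO floating, and -0.62 and -1.97 on KO adherent, in replicate order. It was at background on WT floating 3 alone. Gata5, a factor of heart and gut endoderm, was at -0.12, -0.55 and -0.08 on WT floating, -0.76, -0.46 and -0.41 on KO floating, and -0.78 and -0.06 on KO adherent. Its 3 highest values were on the arrays with high Cbx3, in the opposite order to Tal1, over a narrow range.

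The pioneer factors Foxa1 and Foxa2, which open chromatin in liver, lung and gut and in the ventral midline, were seen on few arrays. Foxa1 was at -5.04, -3.25 and -5.80 on WT floating, -3.22, -5.48 and -3.23 on KO floating, and -6.40 and -6.56 on KO adherent. Foxa1 exceeded background on WT floating 2 and on KO floating 1 and 3. Foxa2 was at -3.22, -7.14 and -5.70 on WT floating, -2.80, -6.29 and -6.38 on KO floating, and -6.81 and -6.47 on KO adherent. On this probe WT floating 1 and KO floating 1 were above background, a pattern that followed neither Cbx3 nor the labels. A second Foxa2 probe was at background on every array, at -6.25 on WT floating 1 and -6.66 on KO floating 1. It thus did not repeat these signals.

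In the T-box family, Tbx15 and T (brachyury) split the arrays as Tal1 did. Tbx15, which acts in skin pigment pattern, limb skeleton and muscle fibre type, was at -4.39, -0.41 and -5.26 on WT floating, -0.45, 0.15 and -1.76 on KO floating, and -0.03 and -3.90 on KO adherent. T, the factor of early mesoderm and notochord, was at -5.91, -2.93 and -5.33 on WT floating, -3.57, -1.08 and -3.10 on KO floating, and -2.89 and -5.12 on KO adherent. For both, WT floating 2 lay among the KO floating arrays and KO adherent 2 lay below them. KO adherent 2 was above background for Tbx15 and not for T.

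The other T-box genes did not show that split. Tbx2, of heart, limb and eye, was at -0.38, -0.32 and 0.32 on WT floating, 0.00, -0.37 and 0.37 on KO floating, and 0.19 and -1.36 on KO adherent, so that only KO adherent 2 stood apart. Tbx1, a factor of the pharyngeal region and inner ear, was at -3.04, -4.03 and -4.30 on WT floating, -3.43, -4.32 and -4.30 on KO floating, and -3.10 and -2.21 on KO adherent. Tbx3, of limb, heart and mammary gland, was at -6.18, -5.69 and -5.46 on WT floating, -4.04, -6.03 and -4.09 on KO floating, and -4.14 and -6.21 on KO adherent. It was above background on KO floating 1 and KO adherent 1, and its groups overlapped.

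Among mesenchyme, limb and skull factors, Msx1 was above background on every array and, like Gata5, was split by the Cbx3 level. Msx1 and Msx2 encode homeodomain repressors that act downstream of BMP signals in limb, tooth and skull. Msx1 was at -2.99, -1.87 and -2.80 on WT floating, -1.33, -2.16 and -2.07 on KO floating, and -1.60 and -2.52 on KO adherent. Its 3 lowest values were again on WT floating 1, WT floating 3 and KO adherent 2. Msx2 was at -1.73, -2.77 and -1.66 on WT floating, -1.28, -2.51 and -1.31 on KO floating, and -0.93 and -1.71 on KO adherent, with its 2 lowest values on the arrays numbered 2 of the floating groups.

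Prrx1, a homeodomain factor of limb and facial mesenchyme, had 2 probes. The probe that stood for the gene was at 1.38, 1.59 and 0.90 on WT floating, 1.15, 1.53 and 1.03 on KO floating, and 1.21 and -0.64 on KO adherent. The other was at -0.41, -0.75 and -0.52, then -0.21, -0.42 and -0.64, then -0.18 and -2.35, in the same order of arrays. Both probes were lowest on KO adherent 2. Alx4, of skull and limb, was at -3.48, -3.99 and -3.49 on WT floating, -3.82, -3.87 and -3.67 on KO floating, and -3.50 and -2.96 on KO adherent, close to the floor on every array. Barx1, a factor of stomach mesenchyme and molar teeth, was at -2.87, -4.87 and -5.38 on WT floating, -3.59, -3.96 and -3.62 on KO floating, and -3.32 and -6.12 on KO adherent.

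Of the paired box genes, Pax9 and Pax3 were tested, and Pax9 had the wider range. Pax9, which acts in the pharyngeal pouches, teeth and vertebral column, was at -4.77, -1.22 and -5.49 on WT floating, -0.74, -1.94 and -1.13 on KO floating, and -1.10 and -1.64 on KO adherent. It was at background on WT floating 1 and 3 only, and unlike Tal1 and T it was above background on KO adherent 2. A second, dimmer Pax9 probe was above background on WT floating 2 and KO adherent 1 alone, at -4.21 and -4.19, and lay between -6.18 and -4.48 on the other 6, so it neither repeated nor contradicted the first on most arrays. Pax3, of neural crest, muscle precursors and dorsal neural tube, was at -4.78, -3.02 and -4.04 on WT floating, -4.25, -5.45 and -5.24 on KO floating, and -4.60 and -6.38 on KO adherent. A second Pax3 probe was at background on every array.

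Eya1 and Six2 are partners in kidney development, where Six2 holds the progenitor state and Eya1 is a co-activator with phosphatase activity. Eya1 was at 5.54, 5.24 and 5.82 on WT floating, 5.29, 5.11 and 5.62 on KO floating, and 5.21 and 5.74 on KO adherent, a narrow range over all groups. Six2 was at -1.39, -2.54 and -5.30 on WT floating, -2.69, -1.86 and -1.11 on KO floating, and -1.87 and -4.15 on KO adherent. It was at background on WT floating 3 and KO adherent 2, and its second probe was at background on all 8 arrays.

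**Figure D2:**
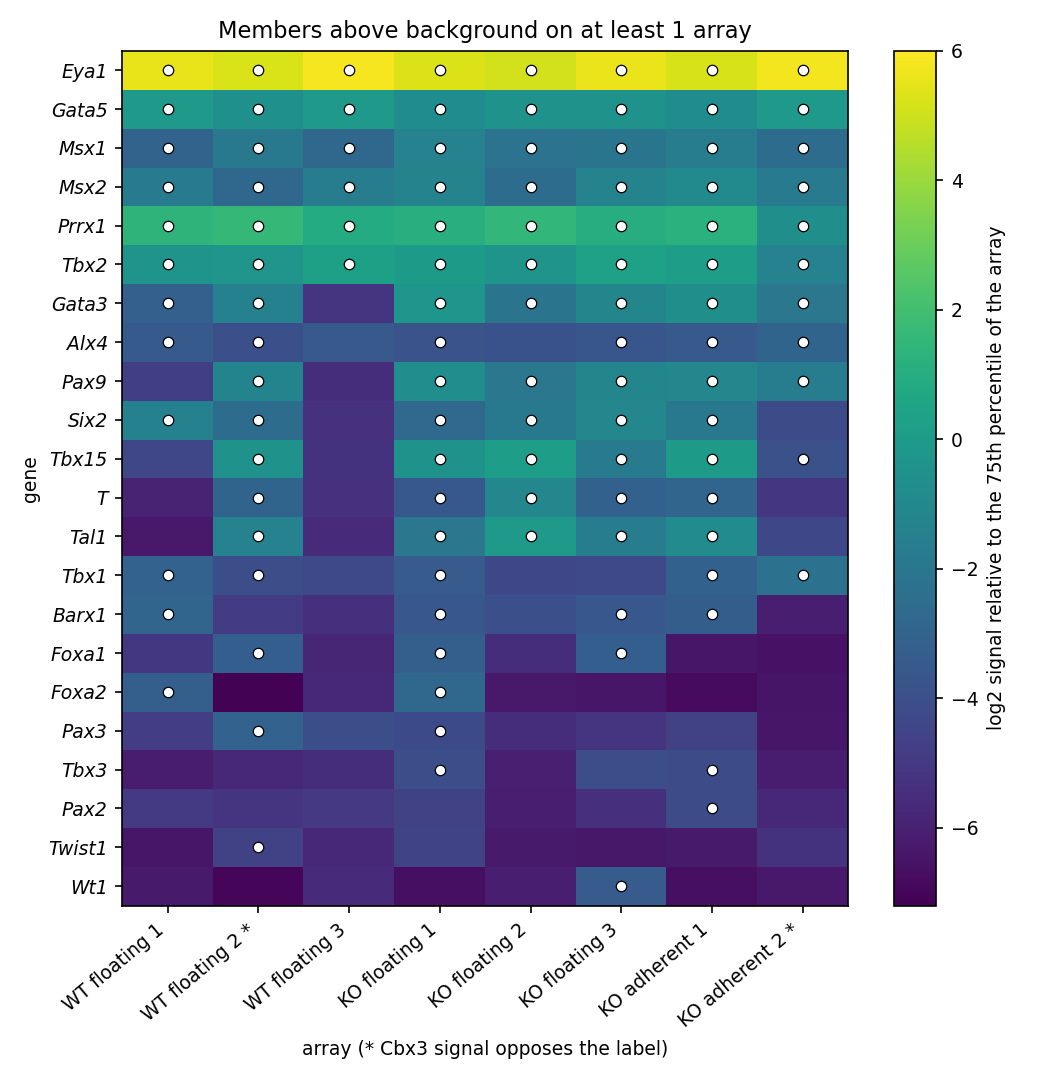
Colour gives the log2 signal relative to the 75th percentile of each array (columns) for the 22 members above background on at least 1 array (rows), and a white dot marks a signal well above background. Tal1, T, Tbx15 and Pax9 are dark on WT floating 1 and 3 and bright on WT floating 2, and Tal1, T and Tbx15 are dark again on KO adherent 2.

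The first labelled comparison, KO floating against WT floating on 3 arrays each, set the genotypes as labelled against each other under the same culture. The WT group held WT floating 2, whose Cbx3 (-2.17) was at the KO level. The comparison is thus not one of Cbx3 present against absent. As labelled, no member differed beyond the spread between arrays. A gene was tested where its probe was well above background on at least 2 of the 8 arrays, whatever their group, which 19 of the 46 members met. None of the 19 was called by limma at an adjusted p under 0.05, beside 1 of 26236 features (0.00381%), and the smallest adjusted p of a member was 0.841. At an unadjusted p under 0.05, Pax9 alone passed (limma adjusted p = 0.841), beside 1.72% of all features. Tal1 averaged -1.25 ± 0.99 (SD, n = 3) in KO floating and -4.39 ± 2.66 (n = 3) in WT floating, a difference of 3.15 (SE 1.46). The differences were 2.67 (SE 1.48) for Tbx15, 2.56 (SE 1.05) for Pax9, 2.14 (SE 1.03) for T and 2.06 (SE 0.97) for Gata3. The groups overlapped in all 19, beside 3.8% of all features higher on every KO array and 4.3% lower. The median difference over the 19 was 0.65, beside -0.01 over all features tested. Tal1, Tbx15, Pax9 and T were above background on only 1 of the 3 WT arrays, so their WT values lay mostly at the floor.

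Without the 2 arrays whose Cbx3 opposed the label, the same comparison, now 3 KO floating against 2 WT floating arrays, called 26 features (0.0991%) and again no member. The 3 members with the smallest adjusted p were Pax9 (difference 3.86, limma adjusted p = 0.0691), Tal1 (4.67, adjusted p = 0.0740) and Tbx15 (4.14, adjusted p = 0.0839). T (3.04), Gata3 (2.98) and Msx1 (1.04) had adjusted p-values of 0.137, 0.138 and 0.150. These 6 passed at an unadjusted p under 0.05, as did 25.0% of all features.

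**Figure D3:**
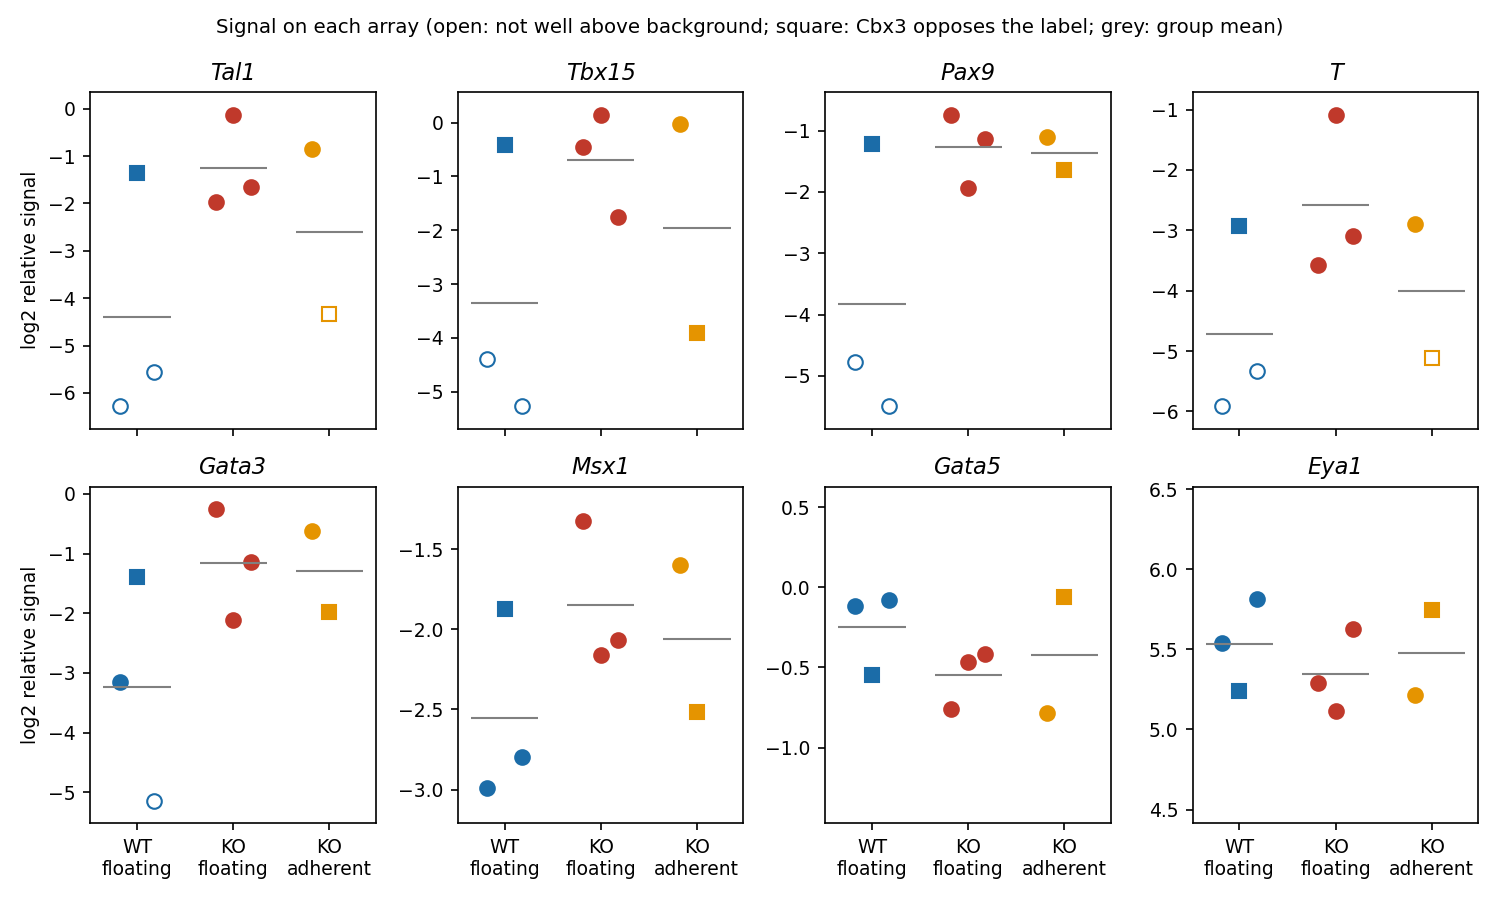
Each point is the log2 relative signal of 1 array for 8 members, by labelled group. Open points were not well above background, squares are the 2 arrays whose Cbx3 signal opposed the label, and grey lines are group means. Each panel has its own axis range. The blue square of WT floating 2 lies with the red KO floating points for Tal1, Tbx15, Pax9 and T, while Eya1 and Gata5 span 1 unit or less.

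When the 4 KO arrays with low Cbx3 were set against WT floating 1 and 3, 3 members rose and none fell. Tal1, Tbx15 and Pax9 passed at an adjusted p under 0.05, which is 3 of the 19 tested, beside 7.53% of all 26236 features (4.73% higher and 2.8% lower). Tal1 averaged -1.15 ± 0.83 (SD, n = 4) in KO and -5.92 ± 0.51 (n = 2) in WT, a difference of 4.77 (SE 0.55, limma adjusted p = 0.0192). Pax9 averaged -1.23 ± 0.51 against -5.13 ± 0.51, a difference of 3.90 (SE 0.38, adjusted p = 0.0155). Tbx15 averaged -0.52 ± 0.86 against -4.83 ± 0.62, a difference of 4.30 (SE 0.59, adjusted p = 0.0243). All 3 were at background on both WT arrays. They thus met the background filter through other arrays, which favoured a higher KO signal. Their fold is a bound, the KO mean against the lowest detectable level or the gene's own signal, whichever was higher on each WT array. On the processed signal it was at least 6.31-fold for Tal1, 5.98-fold for Pax9 and 9.74-fold for Tbx15. With normexp background correction, which adds an offset of 50 to every signal, the same 3 members were called and their differences were 2.26, 1.86 and 2.54, so the size of the rise depends on how background is treated.

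The next members in order of p missed the threshold. Gata3 averaged -1.03 ± 0.80 (n = 4) in KO and -4.15 ± 1.40 (n = 2) in WT (difference 3.12, SE 0.71, limma adjusted p = 0.0548). T averaged -2.66 ± 1.09 against -5.62 ± 0.41 (difference 2.96, SE 0.70, adjusted p = 0.0566), which is at least 2.21-fold. Msx1 averaged -1.79 ± 0.39 against -2.89 ± 0.14 (difference 1.11, SE 0.27, adjusted p = 0.0617). Gata5 lay the other way, at -0.61 ± 0.19 against -0.10 ± 0.02 (difference -0.51, SE 0.17, adjusted p = 0.107). These 4 and the 3 that rose had an unadjusted p under 0.05, which is 7 of 19 members, beside 32% of all features. The 12 other members had adjusted p-values from 0.233 (Tbx3) to 0.888 (Tbx1), with Eya1 at a difference of -0.37 (SE 0.19) and Prrx1 at 0.09 (SE 0.22).

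The groups did not overlap in 8 of the 19 members. Tal1, Tbx15, Pax9, T, Gata3 and Msx1 were higher on every KO array than on either WT array, beside 23% of all features, and Gata5 and Alx4 were lower on every KO array, beside 25.1%. The median difference was 0.50 over the 19 members and -0.03 over all features. It was 0.13 over the same members with normexp and -0.20 over all 46 with no background filter. Of the 19, 7 were above background on neither WT floating 1 nor 3, among them the 3 called members, Tal1, Tbx15 and Pax9. These 7 had met the background filter through the KO arrays or the left-out arrays, so the filter itself favoured a higher KO signal for them. The 6 members above background on all 8 arrays are free of this, and their differences ran from -0.51 (Gata5) to 1.11 (Msx1), with Eya1, Tbx2, Prrx1 and Msx2 at -0.37, 0.08, 0.09 and 0.19. When only features above background on all 8 arrays were tested, Msx1 alone of these 6 was called (adjusted p = 0.0353), beside 17.9% of 18869 features. With no filter on background, which admits all 46 members, Pax9 (adjusted p = 0.0329) and Tal1 (0.0410) were called, beside 0.377% of 49106 features, and Tbx15 was not (0.0536).

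The 3 calls depended on which arrays were in the fit. Without WT floating 1, WT floating 3, KO floating 1 or KO adherent 1 no member was called, with 79, 51, 55 and 26 features called over the whole array, without KO floating 2 there were 7 members and 3707 features, and without KO floating 3 there were 3 members and 2871 features. On the processed signal the differences lay between 4.41 and 5.12 for Tal1, 3.54 and 4.27 for Pax9 and 3.87 and 4.74 for Tbx15 as each array was left out.

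**Figure D4:**
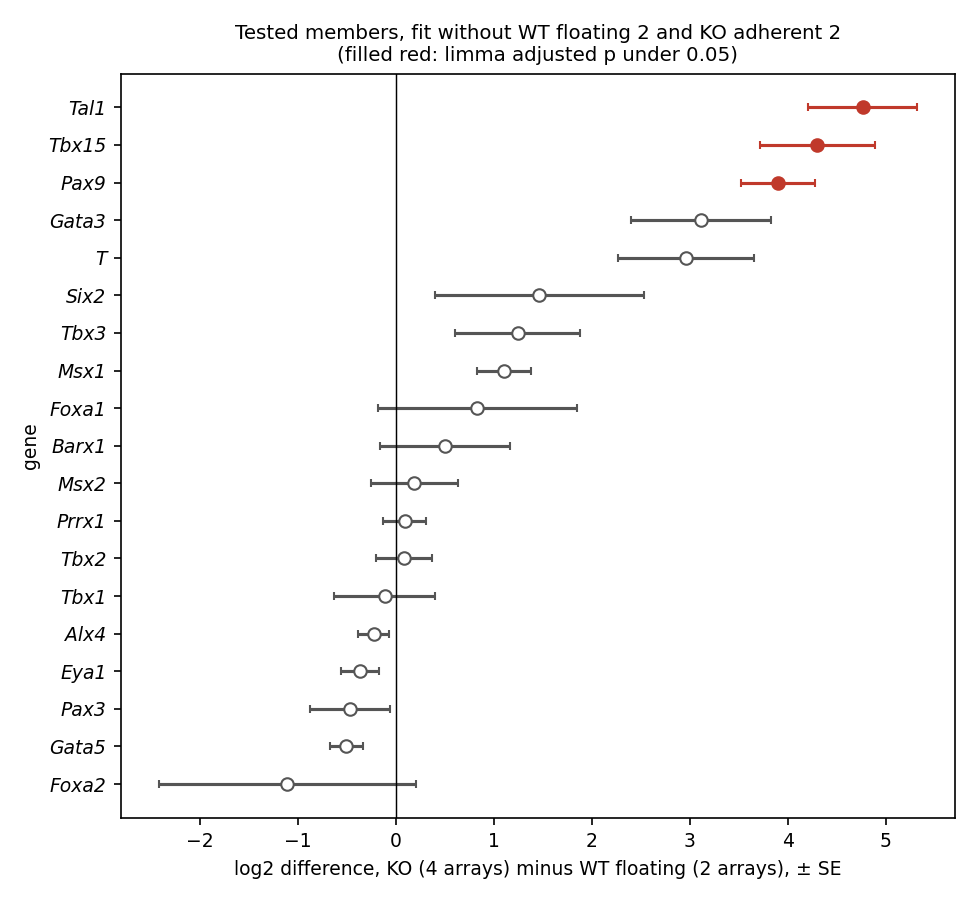
The log2 difference of the 4 KO arrays with low Cbx3 minus WT floating 1 and 3 is plotted for the 19 tested members, with bars of 1 standard error. The 3 red points, Tal1, Tbx15 and Pax9, have a limma adjusted p under 0.05, and values run from 4.77 (Tal1) to -1.11 (Foxa2).

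The 2 left-out arrays were not used in that fit, but they counted toward the background filter and the choice of probe. They had been left out because of their Cbx3 signal, so their values are no independent check. WT floating 2 lay nearer the KO mean than the WT mean for all 3 members that rose. KO adherent 2 lay nearer the WT mean for Tal1 and Tbx15, and nearer the KO mean for Pax9. Of all 1976 features called, 82.1% had WT floating 2 nearer the KO mean and KO adherent 2 nearer the WT mean. Pax9 at -1.64 on KO adherent 2 is thus 1 of the features that did not follow Cbx3 there.

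Culture was compared within the mutant, with KO adherent (2 arrays) against KO floating (3 arrays). None of the 19 was called, beside 0 of 26236 features (0%), with a smallest adjusted p of 0.997. Tbx1 averaged -2.65 ± 0.63 (n = 2) in adherent and -4.02 ± 0.51 (n = 3) in floating arrays, a difference of 1.37 (SE 0.49, limma adjusted p = 0.997). Foxa1 was at background on both adherent arrays and averaged -3.98 ± 1.30 on the floating ones, a difference of -2.50 (SE 0.91, limma adjusted p = 0.997), or at least 1.32-fold lower. These were the 2 members with an unadjusted p under 0.05, beside 1.06% of all features. The median difference of the 19 members was -0.51, beside 0.04 over all features, and the adherent pair held KO adherent 2, which was low for Tal1, Tbx15 and T. Without the 2 arrays, where KO adherent 1 stood alone and was assumed to vary like the others, no member was called, beside 0 features, and none had an unadjusted p under 0.05, beside 2.05% of features.

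KO adherent against WT floating, which differ in genotype and culture together and share arrays with the comparisons above, called none of the 19 members, beside 1 of 26236 features (0.00381%). No member had an unadjusted p under 0.05 either, beside 1.6% of all features. Pax9 was at -1.37 ± 0.38 (n = 2) in adherent and -3.83 ± 2.29 (n = 3) in WT arrays, a difference of 2.46 (SE 1.17). The differences were 1.80 (SE 1.63) for Tal1 and 1.39 (SE 1.65) for Tbx15. Without the 2 arrays, KO adherent 1 alone against WT floating 1 and 3, they were 4.03 (SE 0.59) for Pax9, 5.06 (SE 0.85) for Tal1 and 4.80 (SE 0.86) for Tbx15, and no member was called (smallest limma adjusted p = 0.135), beside 4 features. An unadjusted p under 0.05 was then reached by 6 of the 19 members, beside 20.6% of features.

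Other genes of the same families and pathways were looked at in the fit without the 2 arrays. Of 31 close paralogues of the members, 18 were tested, and 1 rose and none fell. It was Prrx2, the paralogue of Prrx1, at 1.16 ± 0.24 (n = 4) in KO and -0.64 ± 0.20 (n = 2) in WT (difference 1.80, SE 0.20, limma adjusted p = 0.0192). Prrx2 was at 1.72 on WT floating 2 and -0.54 on KO adherent 2, so both left-out arrays followed Cbx3, while Prrx1 itself did not pass. Of 20 partners and inhibitors, such as the E proteins that pair with Tal1 and Twist1, 19 were tested and 1 fell. It was the E protein gene Tcf12, at 4.14 ± 0.15 against 4.93 ± 0.00 (difference -0.80, SE 0.15, adjusted p = 0.0401).

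Of 22 genes of the Polycomb and H3K27 methylation machinery, 21 were tested and none was called in any of the 4 comparisons. Their median difference in that fit was -0.05. Of 26 neural transcription factors, 22 were tested and 3 rose, with a median difference of 0.48. These were Hes5, a Notch effector (8.10 ± 0.46 against 4.87 ± 0.33, difference 3.22, adjusted p = 0.0169), Olig1, of the oligodendrocyte lineage (difference 1.93, adjusted p = 0.0200), and Nr2e1, of neural stem cell renewal (difference 1.04, adjusted p = 0.0446). A rise beside the non-neural factors was thus also seen among neural ones, and 3 of 22 stood beside 3 of 19 members, with 7.53% of all features called. None of these lists had a called gene in the other 3 comparisons, and each named gene kept its call in 2 of 6 fits that left out 1 array. With no background filter Hes5 alone of the 5 was called, Nr2e1 and Tcf12 were not called with the row on the slide as a block, and Tcf12 was not called with quantile normalization or the replicate block.

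The protein-coding neighbours of Tal1, Tbx15, Pax9, T, Gata3 and Msx1, 2 on each side in RefSeq order, were looked at after the values of these members were seen. Of 24 neighbours, 14 were tested and 1 was called, beside 7.53% of all features, so the share is near the background. It was T2, which lies 2 places from T, at -4.84, -0.90 and -3.83 on WT floating, -1.74, -0.46 and -2.16 on KO floating, and -1.29 and -4.05 on KO adherent (difference 2.92, SE 0.53, limma adjusted p = 0.0373). The 5 arrays with low Cbx3 were the 5 highest for T2, as for T, and its call was kept in 2 of 6 fits that left out 1 array and lost with no background filter, the replicate block or the row on the slide as a block.

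Markers of cell types that could carry these factors were read on the same arrays, as sums of linear signal in units of the 75th percentile. Signals cannot be compared between genes, so a sum follows its brightest probes and is not a measure of a cell type. In such cultures, fewer cells of a type and less RNA per cell cannot be told apart. Every list but that of neural stem cells held genes at background on all 8 arrays, and each had at least 1 gene above background on some array. At background on all 8 arrays were Klf1, Alas2 and the beta-globin genes Hbb-bs, Hbb-bt and Hbb-y for red cells and Cdh5, Tie1 and Cldn5 for endothelium (3 of 9). So were Ptprc, Aif1, Cx3cr1 and Tyrobp of microglia and white blood cells (4 of 8 on the array), Lum, Pdgfrb and Postn of fibroblasts (3 of 10), Myog, Myh3, Acta1 and Des of skeletal muscle (4 of 7), Tnnt2 and Myl7 of heart muscle (2 of 6), Rgs5 and Abcc9 of pericytes (2 of 7), and 7 of 8 epithelial and endoderm genes. Above background on all 8 arrays were Hba-a2 and Epor for red cells, Pecam1, Kdr and Flt1 for endothelium, Csf1r, Fcer1g and Itgam for white blood cells, and Foxc1 and Pdgfra for fibroblasts. So were Tagln and Cspg4 for pericytes and smooth muscle, Tnnt1 for skeletal muscle and Myh7 for heart muscle. Acta2, Cnn1 and Myh6 were above background on 7. Acta2 was at -0.58, -0.34 and -0.62 on WT floating 1 and 3 and KO adherent 2. It was at -4.75 to -2.32 on the arrays with low Cbx3. Cnn1 lay the same way, while Tagln and Cspg4 were not split by Cbx3. The fibroblast sum was 2.57 to 5.03 in WT floating, 2.12 to 3.65 in KO floating and 2.43 to 4.82 in KO adherent. In the fit without the 2 arrays, 2 of 8 tested neural stem cell genes rose and 1 of 2 skeletal muscle genes fell. No gene of the other marker lists was called, beside 7.53% of all features.

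Some sums moved with the members. The fibroblast sum lay the opposite way, at 4.33, 5.03 and 4.82 on WT floating 1 and 3 and KO adherent 2 and 2.12 to 3.65 on the 5 arrays with low Cbx3. It was carried by Foxc1 and was not shared by the list. Pdgfra lay against it, at -2.75, -3.03 and -3.21 on the same 3 arrays and -1.90 to -0.52 on the 5, and Col1a1, Col1a2 and Col3a1 were not split by Cbx3. The neural stem cell sum was 283 and 274 on WT floating 1 and 3 and 322 on KO adherent 2, and 491 to 847 on the 5 arrays with low Cbx3. That sum was carried by Fabp7 and Hes5, and Sox2, Slc1a3 and Pax6 were split by Cbx3 in the same direction. Slc1a3 was at 5.18, 5.29 and 5.33 on the same 3 arrays and 6.03 to 6.65 on the 5. Nes lay the other way, at 5.26, 5.06 and 5.34 on the same 3 arrays and 4.03 to 4.81 on the 5, as did Msi1. Prom1 was not split. The neural crest sum (Sox10, Ednrb, Tfap2a and Ngfr, with Foxd3 and Tfap2b at background on all arrays) was 10.0 and 9.57 on WT floating 1 and 3 and 8.67 on KO adherent 2, and 15.4 to 30.9 on the 5 others. The microglia sum was 14.2 to 15.0 in WT floating and 16.1 to 22.8 in KO floating, and 27.5 and 13.5 on KO adherent 1 and 2. The neural crest sum was carried by Ednrb (3.27 on WT floating 1 and 4.93 on KO floating 2), which neural progenitors also express, and the microglia sum by Itgam (3.64 and 3.89). Tfap2a was above background on WT floating 2 (-2.32), KO floating 1 (-1.70), KO floating 3 (-1.81) and KO adherent 1 (-4.28), and at background on the other 4. Their part in the values of Tal1, Tbx15, Pax9, T, Gata3 and Msx1 was not tested.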

How the data were processed

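RNA of 8 neurosphere cultures was hybridised to single-colour Agilent arrays. The deposited scanner files hold spot intensity on a linear scale, made with Agilent Feature Extraction 11.0.1.1 per the file headers (9.1.3.1 per the submitters' processing notes). The authors' deposited value table lay within 0.01% of the scanner's processed signal for 99.2% of probes, so it is not normalized between arrays.

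Here log2 of the processed signal was taken relative to the 75th percentile of the non-control spots of an array, without outlier spots, and repeated spots were averaged. Of 55681 probes, 27235 matched a RefSeq gene of GRCm38.p6 by unversioned accession, and 200 lacked a value on at least 1 array. A gene was represented by its probe of highest mean. A feature was tested where well above background on at least 2 of 8 arrays, which left 26236. Tests used limma 3.58.1 in R 4.3.3 (lmFit, contrasts and eBayes, two-sided), with Benjamini-Hochberg adjustment over all features and a threshold of 0.05. The labelled comparisons came from a fit of 8 arrays and 3 groups, and the further fit from 6 arrays. The number of arrays limits the precision. The script was tested on simulated data.

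Members and lists were chosen with earlier results of these data known. The rule for named genes was to give all arrays for each tested member, the other members by name and range, and up to 4 called genes of each comparison list. A listed marker gene is not reported here. Alternatives were other scalings, background corrections, filters, eBayes settings, blocks and left-out arrays.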

Additional observations from a re-analysis of the deposited data

Results flagged for a closer look

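Among the 4 KO arrays with low Cbx3, Foxa2 stood apart on KO floating 1, at -2.795 beside -6.293 on the next array and -6.807 on the lowest. The gap was 0.872 of the range, above Dixon's critical value for 4 arrays. The second Foxa2 probe was at background on KO floating 1, at -6.66. Tbx3 stood apart on KO floating 2, at -6.035 beside -4.137 on the next array and -4.04 on the highest, a gap of 0.952 of the range. The 19 tested members were looked at and 2 were marked, and chance marks about 1 in 20 groups.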

How the results depend on the processing

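In the fit of 4 KO against 2 WT floating arrays, 1976 features and 3 members were called. The features numbered 185 with no background filter, 3376 where all 8 arrays had to be above background, 3896 with an intensity trend and robust eBayes, and 763 where the row on the slide was a block. Members called were 1 (Msx1, of 6 tested) with the filter on all 8 arrays and 6 (Gata3, Msx1, Pax9, T, Tal1 and Tbx15) with the trend. Leaving out 1 array at a time gave 26 to 3707 features and 0 to 7 members. Higher calls were 1242 of 1976, but 1479 of 3376 under the filter on all 8 arrays and 1914 of 3896 with the trend. Six2 turned from 1.47 to -0.49 without WT floating 3, in a range of -0.49 to 3.42 as each array was left out. Apart from the changes that follow from fewer arrays or other features tested, the cause was not tested.

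KO floating against WT floating called 1 feature, and KO adherent against WT floating also 1. Both gave 0 with normexp, no background filter, the filter on all 8 arrays, the trend, the slide row, only the 2 groups compared, the replicate block, and without any 1 array (0 to 0). Without the 2 arrays that opposed their labels they gave 26 and 4, and quantile normalization gave 8 in the second. KO adherent against KO floating gave 7 features with quantile normalization instead of 0. No setting called a member in these 3 comparisons. By the looser detection flag, 39 members instead of 22 were seen on at least 1 array and 11 instead of 6 on all 8.

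Same-numbered WT and KO floating arrays correlated in their deviations from the group means at r = 0.08, 0.50 and 0.31 across features. Differently numbered WT and KO floating arrays lay between -0.40 and 0.28. These values do not settle whether the numbers pair the samples, and the main fits did not take them as pairs. With the replicate number as a block, the fit of 6 arrays called 1631 features and 6 members (Gata3, Pax9, T, Tal1, Tbx15 and Tbx3), and the labelled comparisons called none. Signals near background limit every value below about the floor of each array, -4.85 to -3.47.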
